A study of Homo sapiens with 372 samples.

Results

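The genes described here encode histone variants and high mobility group (HMG) chromatin proteins. They are 10 of the 9664 genes listed, chosen by name and not by a limit on a measured value. Earlier results of these data were known when the choice was made. The genes are H2AFZ, H2AFV, H2AFX, H2AFY, H3F3A, H3F3B, HMGB1, HMGB2, HMGB3 and HMGN2. They were followed in single A2780 cells, an established human ovarian cancer line, as untreated control, after paclitaxel at 5 nM for 16 h or 48 h, after celecoxib at 75 µM for 2 h or 16 h, and after both drugs at these doses for 16 h (combination 16 h). Paclitaxel stabilizes microtubules and celecoxib inhibits cyclooxygenases. Cells were captured on the Fluidigm C1 system, which isolates single cells on a chip, and their libraries were made with Smart-seq2, which copies polyA-tailed RNA over its full length. The cells used were 46 control, 56 paclitaxel 16 h, 53 paclitaxel 48 h, 63 celecoxib 2 h, 61 celecoxib 16 h and 59 combination 16 h cells, 338 of the 372 listed. The labels do not state a run per condition, but capture site numbers start over in each, and no replicate culture is named. A condition is therefore taken as 1 capture run and 1 sample. The drug and the run cannot be told apart, and no test between conditions was made. SD values below are spreads over cells.

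Nucleosomes wrap DNA around an octamer of core histones, most of which are made in S phase from clustered genes whose RNAs lack a polyA tail. Histone variants are encoded by separate genes that make polyadenylated RNAs and are exchanged into nucleosomes outside replication as well. The values below cover polyadenylated RNA, and any RNA of these genes without a polyA tail would be captured poorly. H2AFZ and H2AFV encode the closely related H2A.Z proteins found at promoters, H2AFX encodes H2A.X, which is phosphorylated around DNA breaks, and H2AFY encodes macroH2A1, which carries a large macrodomain and is enriched in silent chromatin. H3F3A and H3F3B encode the same variant H3 protein, which is deposited in transcribed chromatin. The HMGB proteins bend DNA through HMG boxes, and HMGN2 binds the nucleosome core itself. HMGB2 and H2AFZ are known for high expression in dividing cells.

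Stretches of promoter are shown for the H2A.Z pair, H2AFX and HMGN2, because their values over cells are set beside cell cycle genes further on. Cell cycle promoters often hold CCAAT boxes and a cell cycle homology region (CHR). The letters searched, on both strands, were CCAAT for the box and TTTGAA for the CHR. A TATA box was searched as TATAAA. Capitals mark the matches on either strand, none of which overlap in the stretches shown. The sequences are from RefSeq on GRCh38.p14 (hg38), 5′ to 3′ on the strand of the gene, and end just upstream of the annotated starts. H2AFZ is shown over chr4:99950356-99950525 (minus strand, 170 bases), which also overlaps a first exon of the divergent noncoding gene H2AZ1-DT. H2AFV is shown over chr7:44848088-44848337 and H2AFX over chr11:119095466-119095715 (both minus strand, 250 bases), and HMGN2 over chr1:26472190-26472439 (plus strand, 250 bases).
H2AFZ: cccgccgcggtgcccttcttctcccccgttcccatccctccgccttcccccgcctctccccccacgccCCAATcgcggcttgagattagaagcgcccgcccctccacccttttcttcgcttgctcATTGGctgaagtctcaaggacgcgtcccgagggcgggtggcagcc
H2AFV: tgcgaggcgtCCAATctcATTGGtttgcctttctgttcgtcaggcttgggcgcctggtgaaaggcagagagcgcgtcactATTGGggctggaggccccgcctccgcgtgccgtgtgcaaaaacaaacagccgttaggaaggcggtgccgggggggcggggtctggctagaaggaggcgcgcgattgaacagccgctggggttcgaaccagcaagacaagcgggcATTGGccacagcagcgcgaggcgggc
H2AFX: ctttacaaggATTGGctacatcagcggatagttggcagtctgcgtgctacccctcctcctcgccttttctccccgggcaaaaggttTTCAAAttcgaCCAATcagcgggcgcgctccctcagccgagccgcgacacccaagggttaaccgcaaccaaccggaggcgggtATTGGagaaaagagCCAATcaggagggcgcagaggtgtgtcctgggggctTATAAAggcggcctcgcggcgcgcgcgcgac
HMGN2: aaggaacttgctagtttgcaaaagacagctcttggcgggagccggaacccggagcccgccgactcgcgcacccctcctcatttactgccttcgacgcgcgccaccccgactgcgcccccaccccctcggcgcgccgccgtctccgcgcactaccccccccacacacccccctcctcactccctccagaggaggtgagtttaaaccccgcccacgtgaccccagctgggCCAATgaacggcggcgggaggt

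H2AFV and H2AFX each held 4 CCAAT matches in these stretches, H2AFZ held 2 and HMGN2 held 1. Of the 4 stretches, only that of H2AFX also held a TTTGAA match and a TATAAA match, 1 of each. The full RefSeq window of H2AFZ, which runs past the stretch shown, held 3 CCAAT matches and 1 TATAAA match. Such matches were not particular to these 4 genes. In windows that also hold the first 50 bases after the start, H3F3B had 4 CCAAT matches and 1 TATAAA match, one window of HMGB3 had 3 CCAAT matches and 1 TTTGAA match, and H2AFY and HMGB1 had at most 2 and 3 CCAAT matches. H3F3A had at most 1. Over the 250 upstream bases of all 35116 RefSeq windows, 32.0% held CCAAT, 13.3% held TTTGAA and 10.7% held TATAAA, in at least 1 copy. RefSeq windows were matched for 9 of the 10 genes, the exception being HMGB2. A match is a description of letters and was not tested as a binding site.

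The 10 genes lie on 8 chromosomes (hg38, GENCODE version 44, whole gene with exons, introns and untranslated regions). H2AFZ (ENSG00000164032, now H2AZ1) spans chr4:99948086-99950355 and HMGB2 (ENSG00000164104) spans chr4:173331376-173334432. H2AFV (ENSG00000105968, now H2AZ2) spans chr7:44826791-44848087, H2AFX (ENSG00000188486, now H2AX) chr11:119093874-119095465, and H2AFY (ENSG00000113648, now MACROH2A1) chr5:135334381-135399914. H3F3A (ENSG00000163041, now H3-3A) spans chr1:226061851-226072019 and HMGN2 (ENSG00000198830) chr1:26472440-26476642. H3F3B (ENSG00000132475, now H3-3B) spans chr17:75776434-75785893, HMGB1 (ENSG00000189403) chr13:30456704-30617597 and HMGB3 (ENSG00000029993) chrX:150980509-150990771. Several of these genes have processed copies elsewhere in the genome, and reads shared with such copies would be split by the quantification. The table lists 0 rows named as a pseudogene of a member, so sharing with pseudogenes could not be measured. H3F3C, a processed copy of H3F3B with a name of its own, is listed and is taken up further on.

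Values are given as E-values, log2(N/10 + 1), with N the TPM (a measure of transcript number that corrects for length) divided by the cell's level of the highest of 3 spike-in RNAs, itself taken relative to the mean of that RNA over cells. It therefore follows the amount of RNA per cell, and since TPM is per length, levels can be compared between genes. Relative to the control median, the median log2 total of N per cell was −0.99 and −0.64 at 16 h and 48 h of paclitaxel, −0.76 and −1.52 at celecoxib 2 h and 16 h, and 0.49 with the combination. For this reason each difference is given a second time with the totals of all cells made equal. Reads per cell are unknown, and the median number of genes detected was between 6126 and 6630 per condition. Library indices came in blocks of 96, and the control cells were all in block 4, which they shared only with 31 of the paclitaxel 48 h cells. Of the marker genes used to check the line, the mesenchymal VIM had a control mean E-value of 3.70, the epithelial KRT18 0.59 and the leukocyte gene LYZ 0.15, while the fibroblast genes COL3A1, COL1A2 and LUM had 1.86, 0.45 and 0.48. The other markers sought are not among the genes listed, so their levels are unknown. Listed were 1 of 7 epithelial, 1 of 3 mesenchymal, 1 of 5 leukocyte, 0 of 3 endothelial and 3 of 5 fibroblast markers.

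In control cells the 10 genes covered a wide range of levels. H2AFZ was the highest, with a mean E-value of 8.67 ± 0.91 (SD over 46 cells), 24th of 9664 genes by mean N. Then came HMGB1 with 8.26 ± 0.78, H3F3B with 7.81 ± 0.61, H3F3A with 7.37 ± 0.44 and HMGN2 with 7.23 ± 1.01. HMGB2 had 6.10 ± 1.88, H2AFV 5.85 ± 0.94 and HMGB3 4.53 ± 0.90. H2AFY at 3.93 ± 0.88 and H2AFX at 2.87 ± 1.22 were the lowest. Of the neighbours in this order, only H2AFV and HMGB3 were further apart than the SD over cells of both. Together the 10 genes made up a median of 1.07% of the listed RNA of a control cell (quartiles 0.976 and 1.20%). This share was 1.06% at paclitaxel 16 h and 1.02% at celecoxib 2 h, and lower at paclitaxel 48 h (0.800%), celecoxib 16 h (0.810%) and combination 16 h (0.725%).

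**Figure D1:**
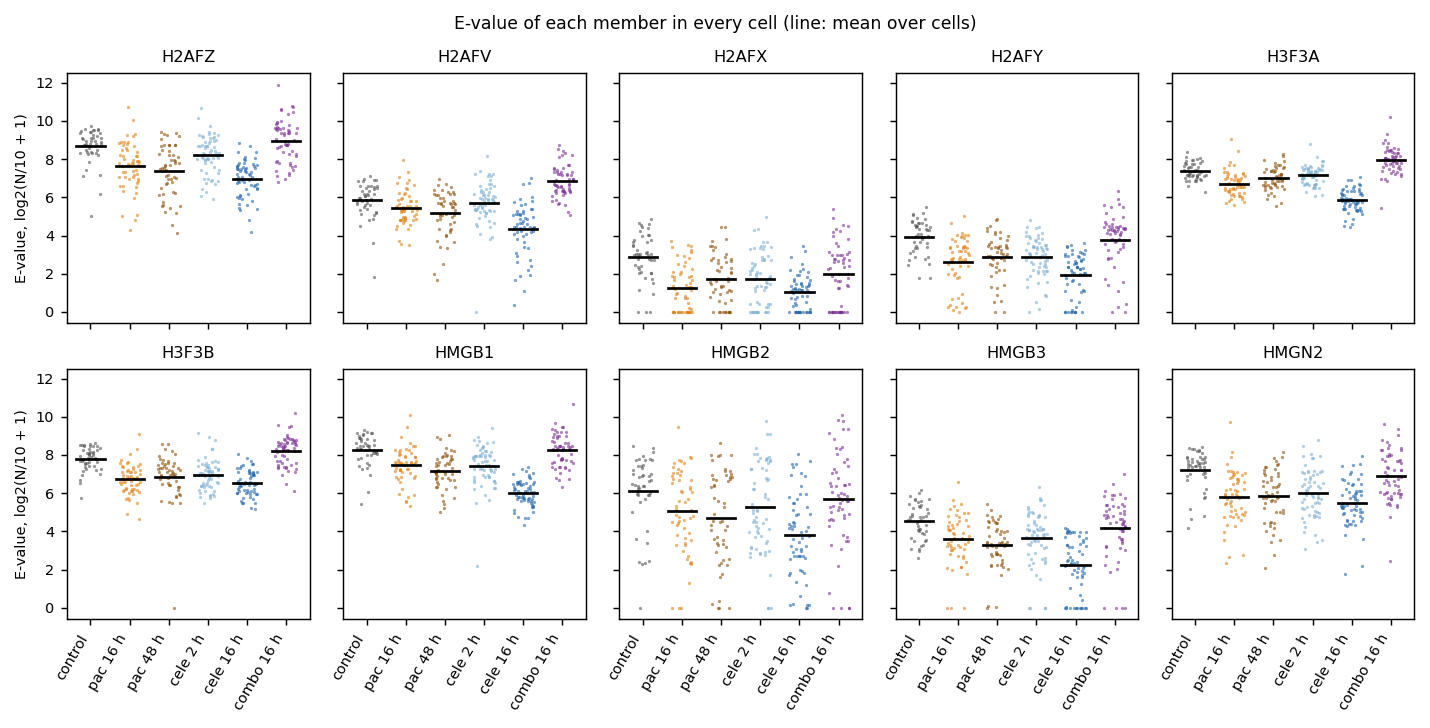
E-value, log2(N/10 + 1), of each of the 10 genes in every cell (1 point per cell, 46 to 63 cells per condition), with a line at the mean. The celecoxib 16 h cells have the lowest mean for every gene, HMGB2 spreads from 0 to above 8 in all 6 conditions, and H3F3A lies above 4 in every cell, while H3F3B has 1 cell at 0 at paclitaxel 48 h.

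Nearly all of the 10 genes were lower with either drug alone on the deposited scale, and the combination did not share this. A gene is called here when its mean E-value in a treatment was more than log2 of 1.5 away from its control mean, a limit of size and not a test. At paclitaxel 16 h, 9 of the 10 genes were called lower and 0 higher, beside 37.3% lower and 0.0932% higher among the 9655 genes that over 30% of the cells expressed in at least 1 condition. At paclitaxel 48 h the count was 9 lower and 0 higher (26.6% and 0.922% of all genes). At celecoxib 2 h it was 7 and 0 (25.7% and 1.12%), and at celecoxib 16 h 10 and 0 (43.9% and 0.383%). With the combination 1 gene was called lower and 1 higher (1.76% and 30.4%). The median difference of the 10 genes was −1.03, −1.11, −0.84, −1.77 and −0.09 in this order of treatments, against −0.41, −0.26, −0.26, −0.48 and 0.33 over all genes.

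Abundant genes pass such a limit more often, because the pseudocount of 10 compresses the differences of weak ones. In a comparison chosen after the data were seen, the background was limited to the 2461 genes at least as high in control cells as H2AFX. Of these, 82.0% were lower at paclitaxel 16 h, 67.9% at paclitaxel 48 h, 62.3% at celecoxib 2 h, 92.6% at celecoxib 16 h and 3.70% with the combination. On the deposited scale the counts of the 10 genes thus lie nearer to the share of these genes than to that of all genes for the single drugs. The 1 gene called higher with the combination stands beside 44.3% of abundant genes. This background reaches down to the weakest of the 10 genes and was not matched to the level of each.

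Once every cell had the same total, the differences were smaller and fewer genes passed the limit. At paclitaxel 16 h, 3 of the 10 genes were lower (10.0% of all genes lower, 1.40% higher), at paclitaxel 48 h 5 (5.78% and 3.28%), at celecoxib 2 h 2 (8.12% and 3.31%), at celecoxib 16 h 5 (7.95% and 7.37%) and with the combination 6 (5.80% and 5.96%). None of the 10 was called higher in any treatment on this scale. Among the 2461 abundant genes the lower share was 23.6%, 16.5%, 21.5%, 22.7% and 15.7% in the same order. The median difference of the 10 genes was −0.24, −0.56, −0.29, −0.61 and −0.71, against −0.25, −0.21, −0.22, −0.17 and −0.11 over the abundant genes. For paclitaxel 16 h and celecoxib 2 h the values of the 10 genes were close to this background, and for the other treatments they lay below it. The 5 treatments share the same control cells, so these counts are not independent of each other.

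**Figure D2:**
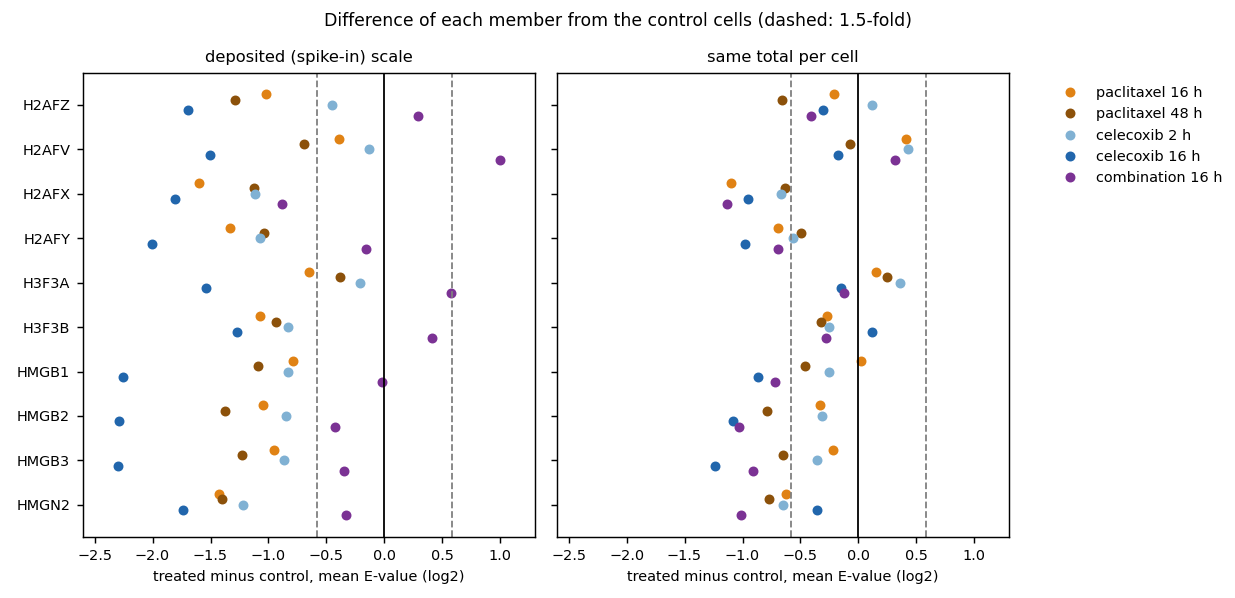
Difference in mean E-value (log2) between each treatment and the control cells for the 10 genes, on the deposited scale (left) and at the same total per cell (right), with dashed lines at 1.5-fold. On the left, 9, 9, 7, 10 and 1 genes lie below the lower line in the order of the legend; on the right 3, 5, 2, 5 and 6 do, and the H3F3A points stay within the lines.

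Genes of the cell cycle moved in the same direction. The S and G2/M lists distributed with Seurat held 45 and 53 genes here, with the 10 genes left out. At the same total, the mean E-value over the G2/M list was 2.68 in control cells, 2.26 and 1.99 at 16 h and 48 h of paclitaxel, 2.12 and 1.82 at celecoxib 2 h and 16 h, and 1.89 with the combination. That of the S list was 2.35, 1.98, 1.83, 2.00, 1.69 and 1.73. The number of G2/M genes called lower at the same total was 11, 25, 19, 29 and 28 of 53 in the 5 treatments. Their part in the differences of the 10 genes was not tested.

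The H2A.Z genes parted from each other. H2AFZ had E-values from 5.00 to 9.71 with a median of 8.80 in control cells, from 4.27 to 10.73 with a median of 7.75 at paclitaxel 16 h, and from 4.14 to 9.43 with a median of 7.56 at paclitaxel 48 h. Its cells ranged from 5.89 to 10.65 (median 8.31) at celecoxib 2 h, from 4.20 to 8.84 (7.06) at celecoxib 16 h and from 6.83 to 11.90 (8.99) with the combination. The ranges overlapped everywhere, but 60 of 61 celecoxib 16 h cells were under the control median. The mean differed from control by −1.02 and −1.29 after 16 h and 48 h of paclitaxel, by −0.46 and −1.70 after 2 h and 16 h of celecoxib, and by 0.29 with the combination. On the scale of equal totals only paclitaxel 48 h passed the limit (−0.66), the others lying between −0.41 and 0.12.

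H2AFV was the least lowered of the 10 genes at paclitaxel 16 h and at celecoxib 2 h. Its mean E-value was 5.85 ± 0.94 in control cells, 5.46 ± 0.89 and 5.16 ± 1.17 at 16 h and 48 h of paclitaxel, 5.72 ± 1.14 and 4.34 ± 1.33 at celecoxib 2 h and 16 h, and 6.85 ± 0.81 with the combination. With the combination it was called higher, by 1.00 (2.00-fold), and 7 of 59 cells were under the control median. The difference at the same total was 0.31, which did not pass the limit, and 0.41 and 0.43 at paclitaxel 16 h and celecoxib 2 h. Within a cell, where the spike-in scaling cancels, H2AFZ made up a median of 88.1% of the H2A.Z RNA (H2AFZ plus H2AFV, as linear N) in control cells. The median was 82.9% and 83.9% at 16 h and 48 h of paclitaxel, 84.7% and 85.3% at celecoxib 2 h and 16 h and 81.4% with the combination. With the combination 48 of 59 cells, and at paclitaxel 16 h 45 of 56, lay below the control median, and the ratio of the linear means moved the same way, from 87.6% in control to between 83.1 and 84.9%. The SD over control cells was 5.10 percentage points, so the shift of each median was of the order of the spread between cells.

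H2AFX was the weakest of the 10 genes and the only one called lower in every treatment on the deposited scale. It was detected (E-value above 0) in 93.5% of control cells (exact Clopper-Pearson 95% interval 82.1 to 98.6%, counting error only). The detected share was 67.9% at paclitaxel 16 h (54.0 to 79.7%), 81.1% at paclitaxel 48 h (68.0 to 90.6%), 81.0% at celecoxib 2 h (69.1 to 89.8%), 75.4% at celecoxib 16 h (62.7 to 85.5%) and 71.2% with the combination (57.9 to 82.2%). Its mean E-value was 2.87 ± 1.22 in control cells and 1.27 ± 1.20, 1.74 ± 1.26, 1.75 ± 1.33, 1.06 ± 0.87 and 1.99 ± 1.58 in the treatments in this order. Cells of every condition ranged from 0 to above 3, so that the groups overlapped. The differences were −1.60, −1.13, −1.12, −1.81 and −0.88, and at the same total −1.10, −0.64, −0.67, −0.95 and −1.13, so that H2AFX passed the limit in all 5 treatments on both scales, the only one of the 10 to do so. This did not hold for the ratio of linear means, whose log2 was −0.56 with the combination on the deposited scale, and −0.57 at both paclitaxel 48 h and celecoxib 2 h at the same total, each just under the limit. On the deposited scale, 0.62% of all genes had a difference at or below that of H2AFX with the combination.

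H2AFY, the macroH2A1 gene, had a mean E-value of 3.93 ± 0.88 in control cells. It was 2.60 ± 1.29 and 2.89 ± 1.15 at 16 h and 48 h of paclitaxel, 2.86 ± 1.06 and 1.92 ± 1.13 at celecoxib 2 h and 16 h, and 3.77 ± 1.42 with the combination. All 61 celecoxib 16 h cells were under the control median of 4.04, the highest of them at 3.59, whereas 24 of 59 combination cells were. With equal totals the differences were −0.69, −0.49, −0.57, −0.98 and −0.70, past the limit at paclitaxel 16 h, celecoxib 16 h and combination 16 h. It was detected in all control cells and in 85.2% of celecoxib 16 h cells (73.8 to 93.0%).

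The variant H3 genes stayed within the 1.5-fold limit in every treatment at the same total, as did H2AFV. H3F3A had E-values between 6.30 and 8.38 (median 7.30) in control cells and between 4.46 and 7.07 (5.83) at celecoxib 16 h, where all 61 cells were under the control median. Its cells ranged from 5.62 to 9.06 (6.68) at paclitaxel 16 h, from 5.54 to 8.29 (6.97) at paclitaxel 48 h, from 6.09 to 8.80 (7.23) at celecoxib 2 h and from 5.45 to 10.20 (7.98) with the combination. The mean differed from control by −0.65, −0.38, −0.21, −1.54 and 0.57 on the deposited scale. With equal totals it differed by 0.16, 0.24, 0.36, −0.15 and −0.12, so that only at celecoxib 16 h was the sign the same on both scales. The SD of H3F3A over control cells, 0.44, was the lowest of the 10 genes.

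H3F3B ranged over cells from 5.78 to 8.64 in control and was detected in every cell but 1, a paclitaxel 48 h cell. Its mean E-value was 7.81 ± 0.61 in control cells, 6.73 ± 0.79 and 6.87 ± 1.24 at 16 h and 48 h of paclitaxel, 6.98 ± 0.78 and 6.53 ± 0.66 at celecoxib 2 h and 16 h, and 8.22 ± 0.76 with the combination. Its differences with equal totals were −0.27, −0.32, −0.26, 0.12 and −0.28, none past the limit. Within a cell H3F3B made up a median of 57.3% of the RNA of the pair in control cells, 50.8% and 50.7% at 16 h and 48 h of paclitaxel, 47.3% at celecoxib 2 h, 61.7% at celecoxib 16 h and 53.4% with the combination. The share was thus below control at 2 h of celecoxib (lower than the control median in 50 of 63 cells) and above it at 16 h (18 of 61 cells below). The quartiles were 38.4 and 56.3% at 2 h and 56.2 and 68.8% at 16 h, so that the middle of the cells in these groups barely overlapped. Both genes encode the same protein, and the RNA was measured, not the protein.

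**Figure D3:**
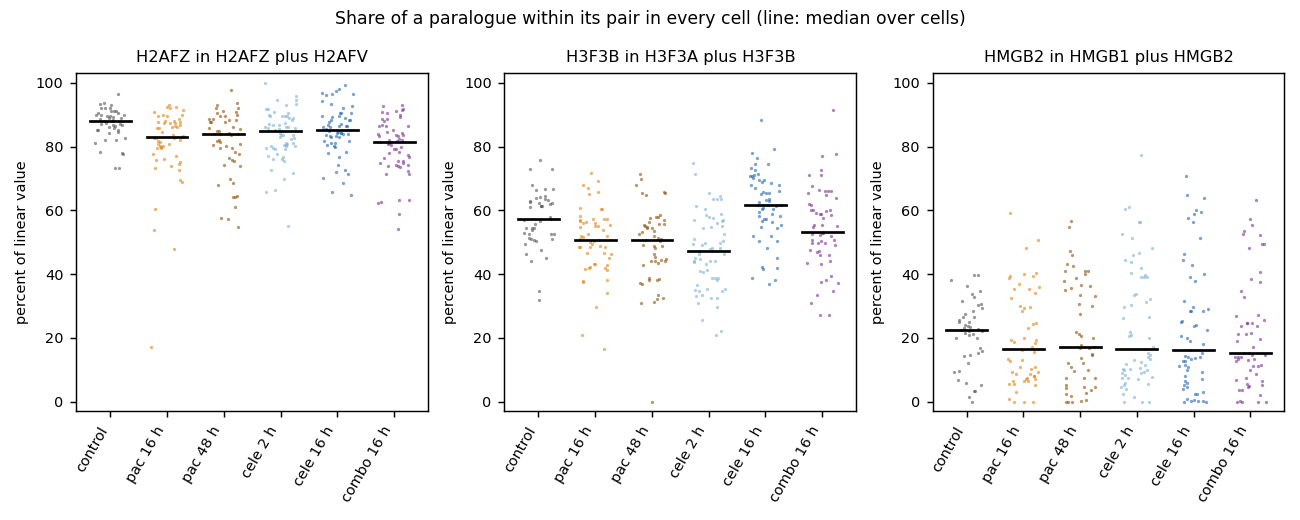
Share of H2AFZ, H3F3B and HMGB2 in the linear value of their pair in every cell (percent, 1 point per cell), with a line at the median. The H2AFZ medians lie between 81.4 and 88.1%, the H3F3B medians between 47.3 and 61.7%, and HMGB2 runs from 0 to as much as 77.4% of its pair.

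On the deposited scale the HMGB genes had the greatest differences of the 10 genes at celecoxib 16 h, whereas with equal totals H2AFY and H2AFX (−0.98 and −0.95) were further below control there than HMGB1 (−0.86). HMGB1 had E-values between 5.44 and 9.29 (median 8.34) in control cells and between 4.35 and 7.38 (6.04) at celecoxib 16 h. All 61 of these cells were under the control median, and 60 of 61 were at the same total. The mean was 8.26 ± 0.78 in control cells, 7.47 ± 0.91 and 7.17 ± 0.90 at 16 h and 48 h of paclitaxel, 7.43 ± 1.06 and 6.01 ± 0.67 at celecoxib 2 h and 16 h, and 8.24 ± 0.84 with the combination. The difference at celecoxib 16 h was −2.25 (4.77-fold lower), and −0.86 at the same total. At paclitaxel 16 h the difference was −0.79 before and 0.02 after totals were made equal. With the combination the mean stood 0.02 below control on the deposited scale and 0.72 below it at the same total.

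HMGB2 was the most uneven gene over cells. Its E-values ran from 0 to 8.48 (median 6.45) in control cells, from 0 to 9.48 (5.14) and from 0 to 8.61 (4.56) at 16 h and 48 h of paclitaxel, from 0 to 9.78 (5.06) and from 0 to 8.07 (3.75) at celecoxib 2 h and 16 h, and from 0 to 10.10 (5.75) with the combination. The mean was 6.10 ± 1.88 in control cells, then 5.05 ± 2.16, 4.73 ± 2.42, 5.25 ± 2.31, 3.81 ± 2.16 and 5.68 ± 2.48 in the treatments. It was past the limit with each drug alone on the deposited scale (−1.05, −1.37, −0.85 and −2.29), but not with the combination (−0.42). With equal totals it was past the limit at paclitaxel 48 h (−0.79), celecoxib 16 h (−1.08) and combination 16 h (−1.03). With linear means at the same total, which weight the high cells, the log2 ratio to control at these 3 was −0.00, −0.14 and −0.32, and 0.34 at celecoxib 2 h. HMGB2 was therefore close to control at paclitaxel 48 h when the high cells carried the weight, and lower when every cell counted alike on the log scale.

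The share of HMGB2 in HMGB1 plus HMGB2 gave the same picture. Its median was 22.6% in control cells and between 15.1 and 17.1% in all treatments, whereas the ratio of linear means was 24.7% in control and between 26.2 and 34.5% in the treatments. The direction therefore depends on whether cells or RNA are averaged. The upper quartile was 28.2% in control cells and 39.1% at celecoxib 2 h, while the lower quartile was 14.8% and 8.97%.

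HMGB3, the least abundant HMGB gene, had a mean E-value of 4.53 ± 0.90 in control cells, 3.58 ± 1.33 and 3.3 ± 1.2 at 16 h and 48 h of paclitaxel, 3.66 ± 1.41 and 2.23 ± 1.42 at celecoxib 2 h and 16 h, and 4.19 ± 1.57 with the combination. The difference at celecoxib 16 h, −2.30, was the greatest of all 50 differences on the deposited scale, as was that at the same total (−1.24). All 61 of these cells were under the control median, and the gene was detected in 82.0% of them (70.0 to 90.6%) against 100% of control cells. Within the HMGB family its share hardly moved, with medians between 4.45 and 5.10% in all 6 conditions.

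HMGN2 showed differences past the limit with every single-drug treatment. Its E-values ran from 4.18 to 8.40 (median 7.50) in control cells, from 2.33 to 9.72 (5.92) and from 2.11 to 8.17 (5.89) at 16 h and 48 h of paclitaxel, from 3.10 to 8.78 (5.98) and from 1.77 to 7.93 (5.40) at celecoxib 2 h and 16 h, and from 2.44 to 9.61 (6.86) with the combination. The mean differed from control by −1.42, −1.40, −1.22, −1.74 and −0.33. With equal totals it differed by −0.63, −0.77, −0.65, −0.36 and −1.01, so that celecoxib 16 h, lowest on the deposited scale, was the treatment closest to control. At celecoxib 2 h, 56 of 63 cells were under the control median, and 46 at the same total.

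Setting the 3 treatments of 16 h side by side, each of the 10 genes was higher with the combination than with either drug alone on the deposited scale. The median log2 total per cell was higher too, 0.49 against −0.99 with paclitaxel and −1.52 with celecoxib. The share of all genes that were higher was not counted. The differences from celecoxib 16 h ran from 0.93 for H2AFX to 2.51 for H2AFV, and those from paclitaxel 16 h from 0.60 for HMGB3 to 1.49 for H3F3B. On the scale of equal totals HMGB1, HMGB2 and HMGB3 were lower with the combination than with paclitaxel 16 h, by 0.74, 0.70 and 0.69, and close to or above celecoxib 16 h (0.15, 0.05 and 0.32). HMGN2 instead was lower than with celecoxib by 0.65 and than with paclitaxel by 0.39. Within index block 1, which 34 combination and 56 paclitaxel 16 h cells shared, the HMGB1, HMGB2 and HMGB3 differences at the same total were −0.68, −0.66 and −0.68. Within block 3, shared by 25 combination and 61 celecoxib 16 h cells, that of HMGN2 was −0.82.

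Only 1 comparison with control could be made within an index block, that of 31 paclitaxel 48 h cells with the control cells in block 4. There 8 of the 10 genes were past the limit on the deposited scale and 4 with equal totals. The latter were H2AFZ (−0.72), HMGB2 (−0.93), HMGB3 (−0.60) and HMGN2 (−0.81), while H2AFX had −0.46, under the limit. The share of all genes past the limit within this block was not counted. Over all paclitaxel 48 h cells, 67.9% of the abundant genes were lower on the deposited scale and 16.5% with equal totals. For the other treatments the index block and the condition cannot be told apart from control.

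The 2 times of each drug were also set side by side. From 2 h to 16 h of celecoxib every gene was lower on the deposited scale, with differences from −0.44 (H3F3B) to −1.45 (HMGB2). With equal totals HMGB3, HMGB2 and HMGB1 differed by −0.88, −0.76 and −0.61 between these times, and H3F3B and HMGN2 by 0.38 and 0.29. Between 16 h and 48 h of paclitaxel the differences were smaller, from −0.32 (HMGB2) to 0.48 (H2AFX) on the deposited scale. On the scale of equal totals H2AFV, HMGB1, H2AFZ, HMGB2 and HMGB3 differed by between −0.48 and −0.43, and H2AFX by 0.46.

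The spread over cells singled out HMGB2. By the rule of the study, a high-variance gene has a log10 ratio of SD to mean over 2 SD above the genes of its bin, with 100 bins by mean and a mean E-value of over 1 required. HMGB2 met the rule in all 6 conditions, by 2.61 to 3.80 bin SDs, and ranked 4th at paclitaxel 48 h. At paclitaxel 16 h H2AFZ (2.75) and HMGN2 (2.09) also met it. In the other 5 conditions HMGB2 was the only one of the 10 genes that did, beside 1.39 to 1.90% of all genes across the 6 conditions.

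Over the cells within a condition, part of the 10 genes varied with the G2/M list. The Pearson r given here is over cells at the same total, which share a scaling and are taken to share 1 capture run. It is a description with no p. At paclitaxel 48 h the r pools cells of index blocks 2 and 4, and with the combination those of blocks 1 and 3. HMGB2 is on the G2/M list as distributed and was left out of it here, so a high r was likely beforehand. Its r was 0.82 over 46 control cells, 0.78 and 0.81 over 56 and 53 paclitaxel cells, 0.81 and 0.77 over 63 and 61 celecoxib cells, and 0.71 over 59 combination cells. H2AFZ followed with 0.59 to 0.71, and HMGN2 (0.42 to 0.71), H2AFX (0.35 to 0.73) and HMGB1 (0.38 to 0.65) were also positive in every condition. H2AFV had a mean over conditions of 0.39, HMGB3 of 0.37 and H2AFY of 0.15. H3F3A had values between −0.13 and 0.08, and H3F3B between −0.05 and 0.08 in 5 conditions and 0.47 at celecoxib 16 h. With the S list the highest means were those of H2AFZ (0.52), HMGB2 (0.51) and H2AFX (0.44), and both variant H3 genes had negative means (−0.19 and −0.15).

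**Figure D4:**
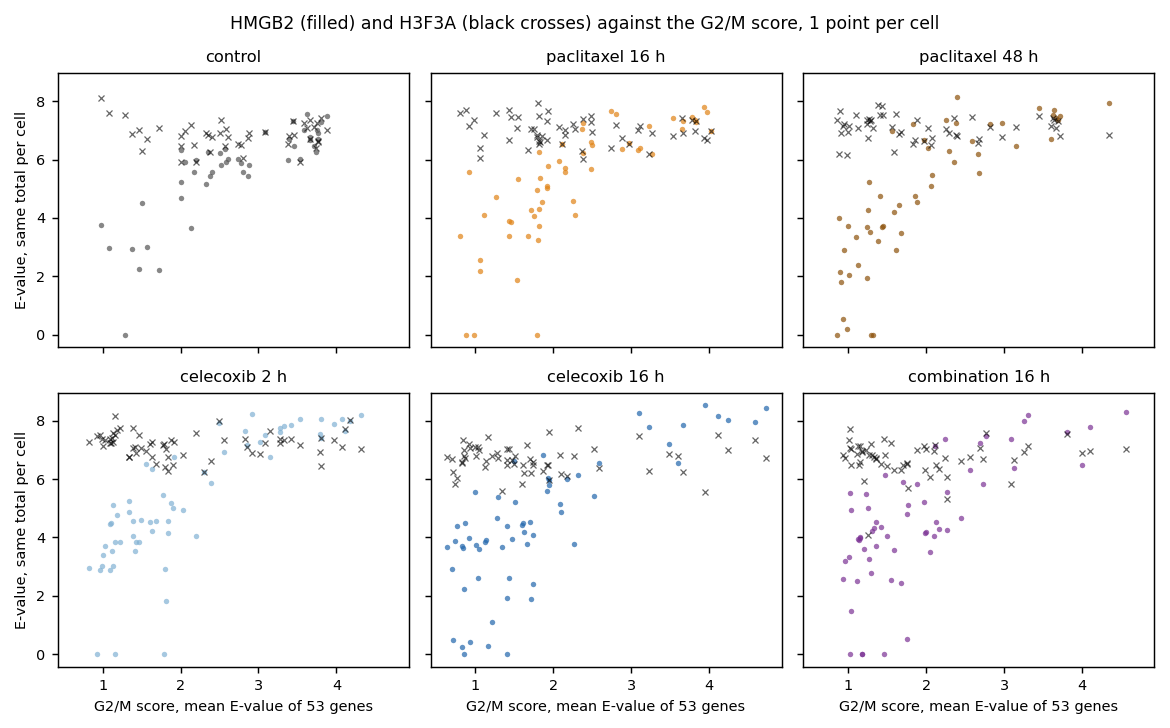
E-value at the same total per cell of HMGB2 (filled points) and H3F3A (black crosses) against the G2/M score of the same cell in each condition. The score is the mean E-value of 53 G2/M genes, from which HMGB2, a gene of the distributed list, was left out. HMGB2 climbs with the score in all 6 conditions (r between 0.71 and 0.82), whereas H3F3A stays level (r between −0.13 and 0.08).

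Among themselves, HMGB2, H2AFZ, HMGN2 and HMGB1 varied together. The mean r over the 6 conditions was 0.70 for H2AFZ with HMGB2 (lowest 0.64), 0.63 for HMGN2 with HMGB2, 0.60 for HMGN2 with H2AFZ and also for HMGB1 with H2AFZ, and 0.52 for HMGB1 with HMGB2. The paralogues H2AFZ and H2AFV had a mean of 0.43, ranging from 0.12 to 0.63, whereas H3F3A and H3F3B had 0.08. H2AFY had mean values of at most 0.12 with any of the others.

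**Figure D5:**
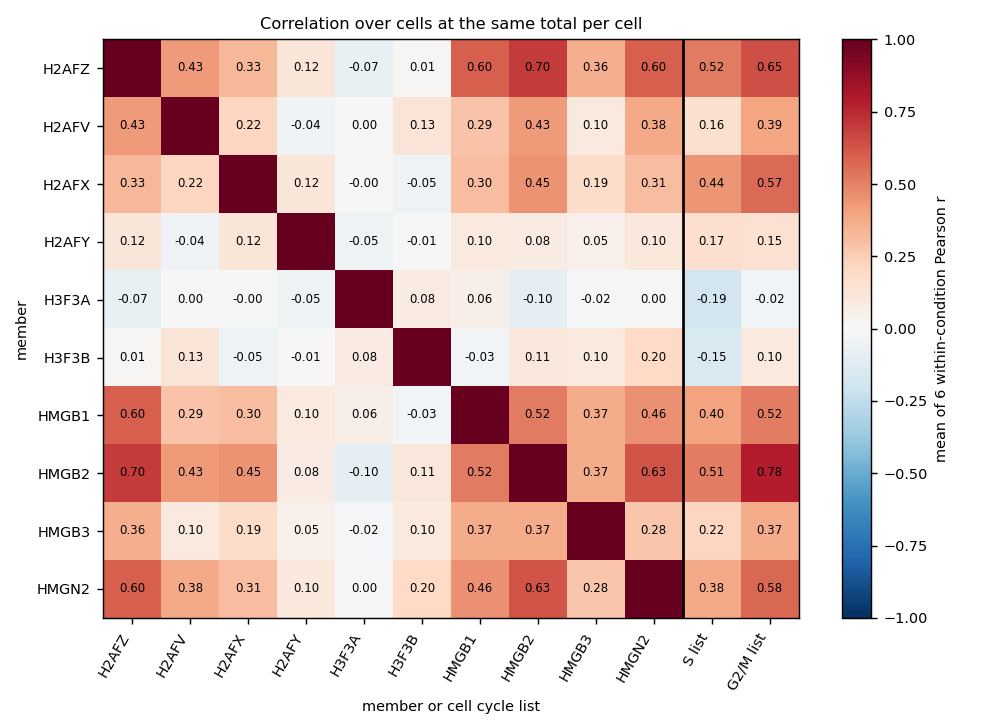
Pearson r over cells at the same total, averaged over the 6 conditions, between the 10 genes and with the S and G2/M lists (colour scale from −1 to 1). HMGB2, H2AFZ, HMGN2 and HMGB1 form a positive block of 0.46 to 0.70, and H3F3A, H3F3B and H2AFY stay between −0.10 and 0.20 with all other members.

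The 3 genes most like each member were taken by this mean r among the 7571 genes in at least 30% of the cells of every condition. For HMGB2 they were PBK (0.79), a mitotic kinase, AURKB (0.76), the kinase of the chromosomal passenger complex, and BIRC5 (0.73), a subunit of the same complex. For H2AFZ they were PBK (0.70), HMGB2 (0.70) and BIRC5 (0.66), for HMGN2 they were HMGB2 (0.63), BIRC5 (0.61) and PBK (0.60), and for HMGB1 PBK (0.61), H2AFZ (0.60) and BIRC5 (0.59). H2AFX was most like GTSE1, NDC80 and UBE2C (0.50 each), H2AFV like BIRC5 (0.46), PTTG1 (0.43) and H2AFZ (0.43), and HMGB3 like BIRC5 (0.41), UBE2S (0.40) and MKI67 (0.37). For the rest the likeness was weak: H2AFY with RRP7A (0.25), UBE2D2 (0.24) and PDCD6 (0.22), H3F3A with PRDX2 (0.38), COL3A1 (0.32) and ALDH1A1 (0.32), and H3F3B with H3F3C (0.39), UBB (0.30) and YIF1B (0.27). H3F3C is a processed copy of H3F3B, so that the quantification may have shared reads between them.

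Partners of these proteins gave a mixed picture. Their counts can be set beside the shares of other genes, in the same order of treatments. On the deposited scale 37.3%, 26.6%, 25.7%, 43.9% and 1.76% of all genes were lower. Of the 2461 abundant genes 82.0%, 67.9%, 62.3%, 92.6% and 3.70% were. At the same total 10.0%, 5.78%, 8.12%, 7.95% and 5.80% of all genes were lower. Of the abundant genes 23.6%, 16.5%, 21.5%, 22.7% and 15.7% were. Of 12 genes for H2A.Z exchange, 7, 5, 6, 8 and 0 were lower in the 5 treatments on the deposited scale, and 2, 1, 2, 3 and 0 at the same total, with list medians of −0.16, −0.06, −0.14, −0.16 and −0.11. ACTL6A, an actin-related subunit of the exchange complexes, was past the limit on both scales at each single-drug treatment, from 5.05 in control to 3.35, 3.56, 3.86 and 2.80. RUVBL2, an ATPase of the same complexes, was so at paclitaxel 16 h (5.39 to 3.70), celecoxib 2 h (4.22) and celecoxib 16 h (3.08), where ZNHIT1 was too (4.46 to 2.53). Of 7 measured genes for deposition of the H3 variant, the chaperone ASF1A was lower on both scales at 16 h (3.61 to 2.34) and 48 h (2.24) of paclitaxel and at celecoxib 16 h (1.82). ATRX, which deposits the variant at repeats, was instead higher on both scales with the combination (2.80 to 4.34). At the same total ATRX was higher past the limit in the other treatments too, by 0.87, 0.72, 0.82 and 0.72, against 0.84 with the combination. The list had 2, 2, 2, 3 and 0 lower and 0, 0, 0, 0 and 2 higher genes on the deposited scale, and 1, 1, 0, 1 and 1 lower and 1 higher in every treatment at the same total.

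Of 13 replication-coupled and general histone chaperones, 7, 9, 3, 12 and 0 were lower on the deposited scale and 1, 1, 0, 4 and 0 at the same total. At celecoxib 16 h NPM1 (8.23 to 5.81), HAT1 (5.99 to 3.74) and NASP (5.71 to 3.75) were so on both scales, at paclitaxel 48 h NPM1 (6.96), and at paclitaxel 16 h ASF1B (2.71 to 1.48). Of 6 genes for transcription and processing of histone RNA, 2, 2, 2, 4 and 0 were lower on the deposited scale and 2, 1, 1, 0 and 0 at the same total. SLBP, which binds the stem-loop of canonical histone RNA, was lower on both scales at paclitaxel 16 h (4.48 to 2.92) and 48 h (3.12) and at celecoxib 2 h (3.28). LSM10, of the processing particle, was so at paclitaxel 16 h (4.82 to 3.43). Among 10 genes that act around H2A.X phosphorylation, 1, 2, 1, 3 and 0 were lower on the deposited scale. At the same total 0 were lower in every treatment, where H2AFX itself was lower in all 5. Except for PRKDC (2.85) and RNF8 (2.07), these genes had control means of at most 1.67 (BAZ1B), against 2.87 for H2AFX. The pseudocount compresses the differences of such weak genes, so the counts are not a like comparison with H2AFX. ATM, the kinase that phosphorylates H2A.X, was higher on both scales at celecoxib 2 h (1.03 to 1.64).

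HMGB2 is also a subunit of the SET complex, of which 5 other genes were measured. On the deposited scale 5, 5, 3, 5 and 1 of these were lower in the 5 treatments, and 2 were higher with the combination. At the same total 1, 1, 2, 1 and 2 were lower. Their control means were all at least 3.98, within the range of the abundant genes. Of those, 82.0%, 67.9% and 92.6% were lower on the deposited scale at paclitaxel 16 h, paclitaxel 48 h and celecoxib 16 h. The endonuclease APEX1 was lower on both scales at paclitaxel 16 h (5.56 to 3.92) and 48 h (4.31), at celecoxib 2 h (3.80) and with the combination (4.97). NME1, a nuclease of the complex, was so at celecoxib 2 h (7.49 to 6.18) and 16 h (5.43). Of 10 other HMG genes measured, 4, 4, 3, 5 and 0 were lower on the deposited scale and 6 were higher with the combination. With equal totals 2, 0, 0, 1 and 0 were lower and 1, 1, 2, 2 and 1 higher. HMGA1 was lower on both scales at paclitaxel 16 h (5.04 to 3.65) and celecoxib 16 h (3.09), and HMGN4 at paclitaxel 16 h (3.29 to 1.92). Whether the other HMG genes and the members differ in response was not tested.

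Of 6 other variants and linker histones measured, 5 were higher with the combination on the deposited scale, beside 30.4% of all genes. At the same total 0 of the 6 were higher there. The exception on the deposited scale was CENPA, the centromeric H3 variant. CENPA was lower on both scales in all 5 treatments, from 2.43 in control to 1.24, 1.10, 1.24, 0.76 and 1.31. Of 20 genes of the canonical clusters, 3, 4, 4, 8 and 2 were lower on the deposited scale and 1, 1, 0, 3 and 1 at the same total. HIST1H4C, the most abundant, was higher with the combination on both scales (6.30 to 7.73). At the same total it was higher past the limit at paclitaxel 16 h (0.99) and celecoxib 2 h (0.65) too, against 0.73 with the combination. HIST1H2BK was lower at paclitaxel 16 h (3.93 to 2.37), HIST1H4J at paclitaxel 48 h (1.62 to 0.77), and HIST3H2A at celecoxib 16 h (1.98 to 0.62) and with the combination (1.14). HIST1H4J (0.56) and HIST1H4K (1.21 to 0.29) were also lower on both scales at celecoxib 16 h. RNAs without a polyA tail are captured poorly by this method, so that values of the clustered genes may cover only their polyadenylated forms.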

How the data were processed

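Single A2780 cells of 6 conditions were sequenced by Smart-seq2. The authors trimmed reads with Trim Galore, ran RSEM 1.3.0 (aligner Bowtie2) against hg38 transcripts of GENCODE version 28 plus 3 spike-in RNAs to obtain TPM, divided each TPM by the cell's TPM of the highest spike-in RNA relative to its mean over cells, and removed cells with few housekeeping genes. For 9664 genes the authors deposited log2 values (E-values), written as log2(N/10 + 1). No read counts were used, so no count test or doublet caller was run. All 338 cell columns matched a listed cell. The deposited state per cell was not used.

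N was recovered from E, and for the alternative scale each cell was rescaled to the median total of all cells. Mean E-values were compared with control at a limit of log2 of 1.5, with no test, since cells are not replicates. The genes named are the 10 members, the 3 genes most like each, and per list and treatment the 3 largest differences past the limit on both scales, except that 1 gene is not reported here. The members and lists were chosen with earlier results of these data known. The script was tested on simulated data. Symbols of all 10 genes were matched to GENCODE version 44 by identifier. Alternatives were another scaling, linear means, a pseudocount of 1, medians, a limit of 2-fold, other detection limits, 50 bins, Spearman's rho, single index blocks, and leaving out the 1 cell from a well noted as 0 or debris. Seurat 5.3.0 supplied the cell cycle lists; the rest was done in Python 3.11.15 with pandas 2.3.3, numpy 2.4.6, matplotlib 3.10.9 and scipy 1.17.1.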

Additional observations from a re-analysis of the deposited data

Results flagged for a closer look

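For 9 of the 10 genes the effect of paclitaxel at 16 h had opposite signs without and with celecoxib on the deposited scale, each past 1.5-fold: paclitaxel 16 h lay below control, and combination 16 h lay above celecoxib 16 h. The effect with celecoxib minus the effect without it was 3.005 for H2AFZ, 2.534 for H2AFX, 3.18 for H2AFY, 2.761 for H3F3A and 2.763 for H3F3B on the log2 scale. It was 3.024 for HMGB1, 2.919 for HMGB2, 2.902 for HMGB3 and 2.832 for HMGN2. The difference between these effects was not tested, since each condition is taken as 1 run. H2AFV had effects of −0.39 and 2.51, the first under the limit. Of all 9655 genes, 3260 (33.8%) showed the same opposite pattern past the limit. At the same total per cell none of the 10 genes had opposite effects past the limit on both sides, and the differences ran from −0.13 (H3F3A and H3F3B) to 0.98 (H2AFY).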

How the results depend on the processing

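The scaling changed the counts most. At the same total per cell, over all genes or without the 50 most abundant, 3, 5, 2, 5 and 6 of the 10 genes were lower in the order paclitaxel 16 h, paclitaxel 48 h, celecoxib 2 h, celecoxib 16 h and combination 16 h, and 0 were higher with the combination. A 2-fold limit left 3 lower genes at celecoxib 2 h and 0 with the combination. For the combination, linear means gave 2 higher and 0 lower, medians 2 and 3, and index block 1 alone 2 higher, while a pseudocount of 1 and index block 3 alone gave 2 lower. Of the differences past the limit on the deposited scale, those that turned sign at the same total were H3F3A at paclitaxel 16 h (0.16, and 0.17 without the 50 most abundant genes), H3F3B at celecoxib 16 h (0.12 and 0.10) and HMGB1 at paclitaxel 16 h (0.0205 and 0.0308). Of 340 recomputed member differences, 28 turned sign, only 6 of them from differences past the limit. These 28 fell on 15 pairs of gene and treatment, with 11 under each of the equal-total scalings, 4 with linear means (H2AFY, HMGB1, HMGB2 and HMGB3 with the combination), 1 with medians and 1 with index block 1 alone. Leaving aside the 6 from past the limit, 316 differences moved by less than the SD over cells and 18 by more. High-variance genes among the 10 numbered 2 in control and 2 at celecoxib 2 h at the same total, 2 at celecoxib 2 h with 50 bins, and 3 at paclitaxel 48 h and 2 at celecoxib 16 h with linear values. The cause of these changes was not tested. The alternative that adds pseudogene rows was not run, because 0 such rows are listed. With no read counts, the depth behind a value of 0 is unknown, which limits H2AFX most. No paired analysis was possible because the result comes from no test and each condition is 1 sample.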
